A study of Mus musculus with 6 samples.

Results

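The lymphatic endothelial genes described here are 8 genes, Prox1, Lyve1, Stab2, Pdpn, Mmrn1, Reln, Nts and Ccl21a, of the 24421 gene symbols counted in each library. They were chosen by name as lymphatic genes and by their levels in these same libraries, in which earlier work had found lymphatic transcripts gathered in 1 library. Their levels are therefore given as a description, and no test of them is read. The libraries were made from cells sorted by flow cytometry as the endothelial population of subcutaneous B16F0 tumours, a transplantable mouse melanoma line, grown for 17 days in C57BL/6 mice. In 3 libraries (15C4 1, 2 and 3) the mice had received 15C4, an antibody that blocks the secreted glycoprotein LRG1, and in 3 libraries (IgG 1, 2 and 3) they had received IgG as control, each at 50 mg/kg every 3 days. The cDNA of all 6 libraries was amplified by PCR and prepared with Nextera XT reagents. The labels name neither the surface markers of the sort nor the age or number of the mice. They also leave unsaid whether each library stands for its own mouse, so a p-value here reflects spread between libraries, which may be technical.

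Lymphatic endothelium lines the vessels that carry tissue fluid and immune cells back to the blood, and in tumours these vessels are a route to the draining lymph nodes. Its cells arise largely from venous endothelium, in which SOX18 and NR2F2 switch on Prox1, the transcription factor that sets and keeps lymphatic identity. They grow in response to VEGF-C, which acts through the receptor VEGFR3 encoded by Flt4. Lymphatic and blood vessel cells share most pan-endothelial surface proteins, so a sort on such proteins can collect both.

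Library IgG 2 stands apart for these genes, and the group means of the members and the medians of the lists of other lymphatic genes are also given without it. Total counts lay between 5175600 and 19572202 per library, and 10413 to 13707 genes were detected. Values are CPM, a gene's counts per 1000000 counts of its library. A count of 0 allows a level of up to 3 counts, which is 0.153 to 0.580 CPM depending on the library. Pan-endothelial transcripts, 22 genes led by Cdh5 (VE-cadherin), summed to 1573, 3338 and 1598 CPM in 15C4 1, 2 and 3 and to 1966, 2768 and 245 CPM in IgG 1, 2 and 3, so IgG 3 held few endothelial transcripts. Transcripts of the 13 melanocyte genes, led by Dct and Tyrp1, summed to between 24496 and 29459 CPM in every library and far exceeded the endothelial ones. In such mixed samples, fewer cells of a type and less RNA per cell cannot be told apart.

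The upstream sequences of 3 members are shown because these genes mark the ends of what was seen: Nts was the most abundant member per transcript length in IgG 2, Stab2 the least abundant one detected there, and Pdpn was the member present in all 6 libraries. Each is the 250 bases before the start site that RefSeq gives on GRCm38.p6, printed 5′ to 3′ on the gene's strand. Capitals mark matches, on either strand, to the letters ACAAAG or ACAATG (core of SOX sites), AGGTCA (nuclear receptor half-site), AGATAA (known for GATA factors) and GTAAACA (forkhead).
Nts (chr10:102490419-102490668, minus strand): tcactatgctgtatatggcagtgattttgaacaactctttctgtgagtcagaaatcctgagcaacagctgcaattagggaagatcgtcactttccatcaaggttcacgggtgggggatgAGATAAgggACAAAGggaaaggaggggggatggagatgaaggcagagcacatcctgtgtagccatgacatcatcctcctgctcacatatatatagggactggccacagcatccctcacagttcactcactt
Stab2 (chr10:87007943-87008192, minus strand): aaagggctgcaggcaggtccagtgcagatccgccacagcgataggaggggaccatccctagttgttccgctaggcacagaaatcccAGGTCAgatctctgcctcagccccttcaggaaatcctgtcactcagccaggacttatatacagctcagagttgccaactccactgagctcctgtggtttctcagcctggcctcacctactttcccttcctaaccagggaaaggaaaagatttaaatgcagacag
Pdpn (chr4:143299565-143299814, minus strand): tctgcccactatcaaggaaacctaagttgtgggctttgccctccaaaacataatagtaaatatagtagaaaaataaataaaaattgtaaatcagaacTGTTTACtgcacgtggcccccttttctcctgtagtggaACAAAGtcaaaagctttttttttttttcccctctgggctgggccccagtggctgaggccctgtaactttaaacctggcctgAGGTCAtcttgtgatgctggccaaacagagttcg
The Nts sequence holds AGATAA 131 bases and ACAAAG 122 bases before the start, both in the printed direction. The Stab2 sequence holds AGGTCA 164 bases before the start. The Pdpn sequence holds TGTTTAC, the reverse complement of GTAAACA, 153 bases before the start, ACAAAG at 115 and AGGTCA at 34. Such letters are common: over 32851 mouse promoter windows of this length, 25.2% hold a SOX core, 14.0% AGGTCA, 9.99% AGATAA and 3.17% GTAAACA. Of the other members with a RefSeq entry, Mmrn1 and the second Prox1 start hold a SOX core, and Reln, Ccl21a and the first Prox1 start hold none of the 4 motifs. In all, 7 of the 8 members had an entry, and the missing one is Lyve1.

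Prox1 (chromosome 1, 190118035 to 190170714, minus strand; all gene positions are on GRCm38 from GENCODE M21) had 1, 7 and 0 counts in 15C4 1, 2 and 3, against 0, 187 and 0 counts in IgG 1, 2 and 3. In CPM this is 0.119, 0.358 and 0 in 15C4, against 0, 19.4 and 0 in IgG. The counts of the fate-setting transcription factor thus lay almost wholly in IgG 2, where its 95% Poisson interval ran from 16.7 to 22.4 CPM. Set against the other 5 libraries pooled, which held 8 counts, IgG 2 was 124-fold higher (95% interval 61.7 to 292). All such intervals cover only the error of counting, because amplified reads that carry no molecular identifiers are not separate molecules. Prox1 averaged 0.159 ± 0.182 CPM in 15C4, against an IgG mean of 6.47 ± 11.2 CPM (SD, n = 3 each, as for all means here), which without IgG 2 was 0.

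Lyve1 (chromosome 7, 110850607 to 110863239, minus strand), a hyaluronan receptor of lymphatic capillaries, had 0 counts in all 3 15C4 libraries, against 15, 3535 and 0 counts in IgG 1, 2 and 3. In IgG 2 it reached 367 CPM (355 to 379), and in IgG 1 it was at 2.90 CPM. IgG 2 held 99.2% of the CPM summed over the libraries, and was 1252-fold above the other 5 pooled (758 to 2239). Stab2 (chromosome 10, 86841198 to 87008025, minus strand), a scavenger receptor that takes up hyaluronan and is also made by sinusoidal endothelium, had 0 counts in all 3 15C4 libraries, against 1, 69 and 0 counts in the IgG libraries. Its 7.16 CPM in IgG 2 (5.57 to 9.06) was 366 times the pooled level of the others, a ratio whose interval of 63.6 to 14683 rests on that 1 count. Both hyaluronan receptors were thus detected in IgG 1 and IgG 2 and in no 15C4 library. Both 15C4 means were 0, against IgG means of 123 ± 211 CPM for Lyve1 and 2.45 ± 4.08 CPM for Stab2, which without IgG 2 were 1.45 and 0.0966 CPM.

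Mmrn1 (chromosome 6, 60924976 to 60989378, plus strand) encodes multimerin, a secreted multimeric glycoprotein that platelets also carry. It had 0, 3 and 0 counts in 15C4 1, 2 and 3, against 1, 5573 and 0 counts in IgG 1, 2 and 3. This is 0.153 CPM in 15C4 2 and 0.193 CPM in IgG 1, each from 3 counts or fewer, and 578 CPM in IgG 2 (563 to 593). The other 5 libraries held 4 counts in all, against which IgG 2 was 7400-fold higher (2889 to 27169). Nts (chromosome 10, 102481756 to 102490486, minus strand), the precursor of the secreted peptide neurotensin, had 0 counts in all 3 15C4 libraries, against 1, 5924 and 0 counts in the IgG libraries. At 614 CPM in IgG 2 (599 to 630) it was the most abundant member, with a single count elsewhere, and the ratio of 31465 to the pooled others has an interval of 5645 to 1243000. Reln (chromosome 5, 21884454 to 22344702, minus strand), a large secreted matrix protein known from neuronal migration and from lymphatic collecting vessels, had 707 counts in IgG 2 (73.3 CPM, 68.0 to 78.9) and 0 counts in the other 5 libraries. It was at least 1252-fold higher in IgG 2, from 3 counts over the 5 libraries. The 15C4 mean was 0.0511 ± 0.0885 CPM for Mmrn1 and 0 for Nts and Reln. The IgG means of Mmrn1, Nts and Reln were 193 ± 334, 205 ± 355 and 24.4 ± 42.3 CPM, and without IgG 2 they were 0.0966, 0.0966 and 0 CPM. The SD of each of these IgG means over 3 libraries exceeded the mean itself.

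Ccl21a (chromosome 4, 42772860 to 42773993, minus strand) encodes the chemokine CCL21 that draws dendritic cells and T cells into lymphatic vessels. It had 0 counts in all 6 libraries, IgG 2 included. This 0 is uncertain, because near-identical copies exist. Over aligned transcript bases, Ccl21a differed from Gm21541 at 6 of 870 positions, from Gm13304 at 5 of 837 and from Ccl21b and Gm10591 at 2 of 402 each. All 4 copies and Ccl21c also had 0 counts, and how reads that fit several copies were counted is not given in the sources used here. Its receptor gene Ccr7 had 1 count, in IgG 1.

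Pdpn (chromosome 4, 143267431 to 143299564, minus strand), a membrane glycoprotein that binds CLEC-2 on platelets and is made by fibroblastic cells as well as lymphatic endothelium, was the exception. It had 6, 109 and 354 counts in 15C4 1, 2 and 3, against 43, 324 and 74 counts in IgG 1, 2 and 3. Its CPM were 0.714, 5.57 and 55.4 in 15C4, against 8.31, 33.6 and 6.34 in IgG, with 15C4 3 highest and IgG 2 next. IgG 2 held 30.6% of its summed CPM, and was 2.94-fold above the other 5 pooled (2.56 to 3.37). Pdpn averaged 20.6 ± 30.3 CPM in 15C4 (SD, n = 3), against 16.1 ± 15.2 CPM in IgG (SD, n = 3), or 7.32 CPM without IgG 2. The ranges of the 2 groups overlapped. Markers of fibroblasts and stroma, 8 genes, summed to 0.119, 0.766 and 155 CPM in 15C4 1, 2 and 3 (1, 4 and 7 of 8 detected) and to 103, 75.4 and 1.71 CPM in IgG 1, 2 and 3 (8, 6 and 5 detected). In 15C4 3 Lum made up 966 of these counts and Thy1 was at 0, while in IgG 2 Thy1 made up 655 and Lum was at 0. Of 5 keratinocyte genes, 4 were at 0 in every library, and Krt10 had 43 counts in IgG 2. The part of these cells in the Pdpn values was not tested.

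**Figure D1:**
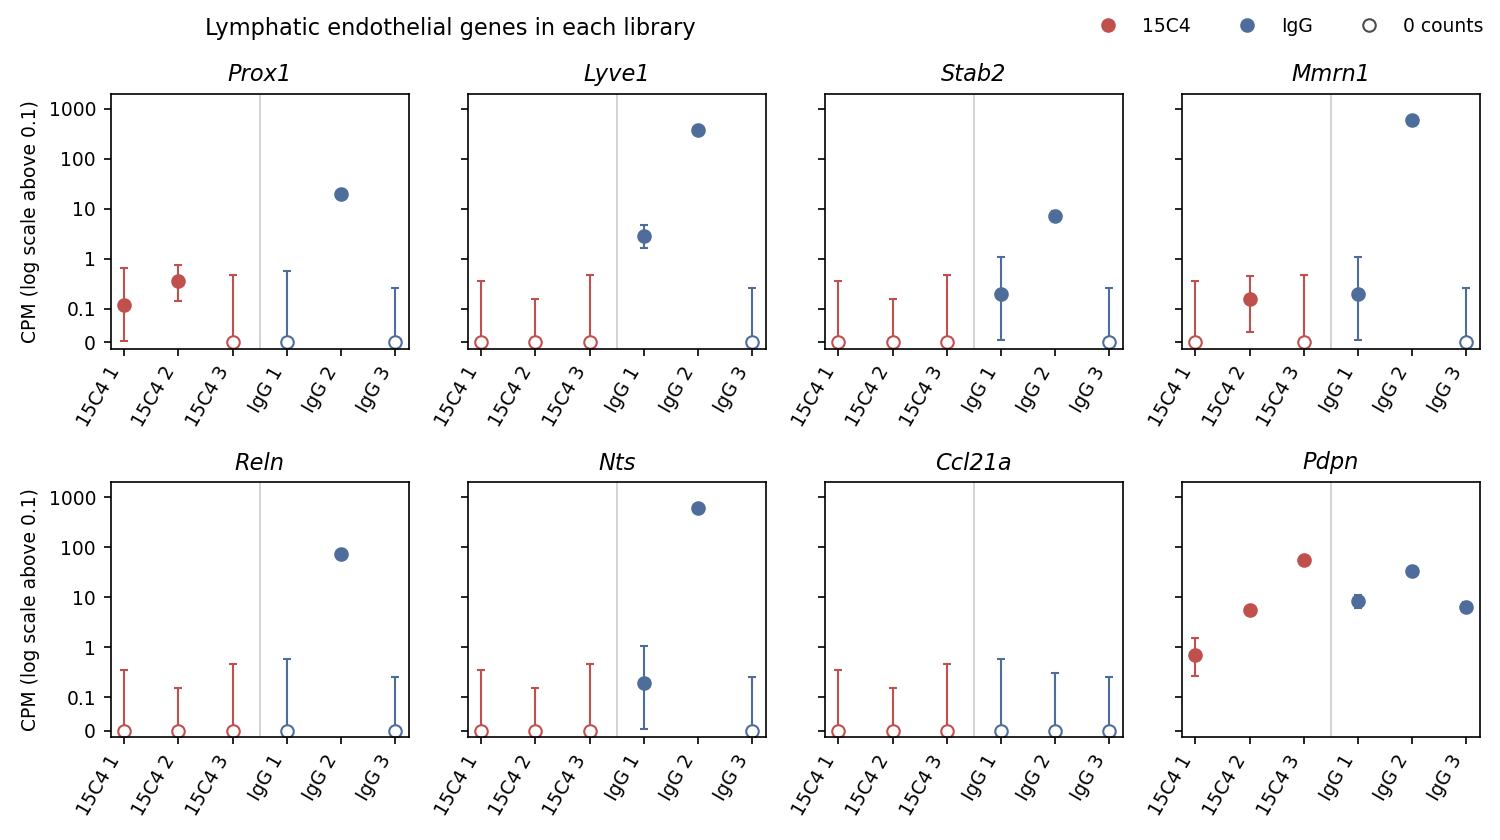
Level of each of the 8 members in each library, as CPM on an axis that is logarithmic above 0.1, with 15C4 libraries in red and IgG libraries in blue. Points are single libraries, bars are 95% Poisson counting intervals, and open points are 0 counts with a bar up to the level of 3 counts. Prox1, Lyve1, Stab2, Mmrn1, Reln and Nts stand out in IgG 2, Ccl21a is at 0 throughout, and Pdpn is highest in 15C4 3 at 55.4 CPM.

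Thus 6 of the 8 members had at least 90% of their summed CPM in IgG 2, from 97.4% for Stab2 to 100% for Reln, 1 was spread over all libraries, and 1 was undetected. Of the 6, Lyve1, Mmrn1, Reln and Nts reached 20 CPM in IgG 2, and Prox1 and Stab2 did not. Among the 8910 other genes that reached 20 CPM in at least 1 library, 16 (0.180%), 2 of them predicted genes, had at least 90% in IgG 2. The same count was 7, 12 and 19 in 15C4 1, 2 and 3 and 23 and 2 in IgG 1 and 3, so other libraries also held such genes. Of the 8 members, 2, 3 and 1 were detected in 15C4 1, 2 and 3, against 5, 7 and 1 in IgG 1, 2 and 3. Compared per kilobase of the longest coding transcript, the levels in IgG 2 ran from Nts at 492 CPM per kb through Mmrn1 at 129, Lyve1 at 127, Pdpn at 18.5, Reln at 6.27 and Prox1 at 2.45 to Stab2 at 0.870 CPM per kb. Nts, Mmrn1 and Lyve1 thus lay well above the other detected members, and Ccl21a had no counts there. Mmrn1 and Lyve1, neighbours in this order, differ by less than their counting intervals.

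The mix of members differed between IgG 2 and IgG 1, the 2 libraries in which most members were detected. In IgG 2, Nts made up 36.3% of the 16319 member counts, Mmrn1 34.2%, Lyve1 21.7%, Reln 4.33%, Pdpn 1.99%, Prox1 1.15% and Stab2 0.423%. In IgG 1, which had 61 member counts, Pdpn made up 70.5% and Lyve1 24.6%. Lyve1 had 63.4 counts per 100 Mmrn1 counts in IgG 2, but 15 counts beside 1 Mmrn1 count in IgG 1. The few lymphatic counts of IgG 1 were therefore not in the proportions of IgG 2.

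The 7 members other than Pdpn summed to 0.119, 0.511 and 0 CPM in 15C4 1, 2 and 3, against 3.48, 1659 and 0 CPM in IgG 1, 2 and 3. Per 1000 pan-endothelial counts they made up 0.0757, 0.153 and 0 counts in 15C4, against 1.77, 599 and 0 counts in IgG. Outside IgG 2, these 7 genes had 1, 10 and 0 counts in 15C4 1, 2 and 3, and 18 and 0 counts in IgG 1 and 3. With Pdpn, the sum of the 8 members averaged 20.8 ± 30.1 CPM over the 15C4 libraries, against 570 ± 972 CPM over the IgG libraries. Their difference of -549 CPM (15C4 minus IgG) became 11.7 CPM without IgG 2. The sum in IgG 2 was 30.6 times that of the next library, 15C4 3 (95% counting interval 27.5 to 34.1), where Pdpn made up the whole of it. Blood vessel endothelial genes, 14 in all and with Cd93, Esm1, Nrp1, Apln, Cd34 and Emcn the highest by their best single library, summed to 1976, 2721 and 1996 CPM in 15C4 and to 2055, 2092 and 233 CPM in IgG. IgG 2 was within the range of the other libraries for these.

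**Figure D2:**
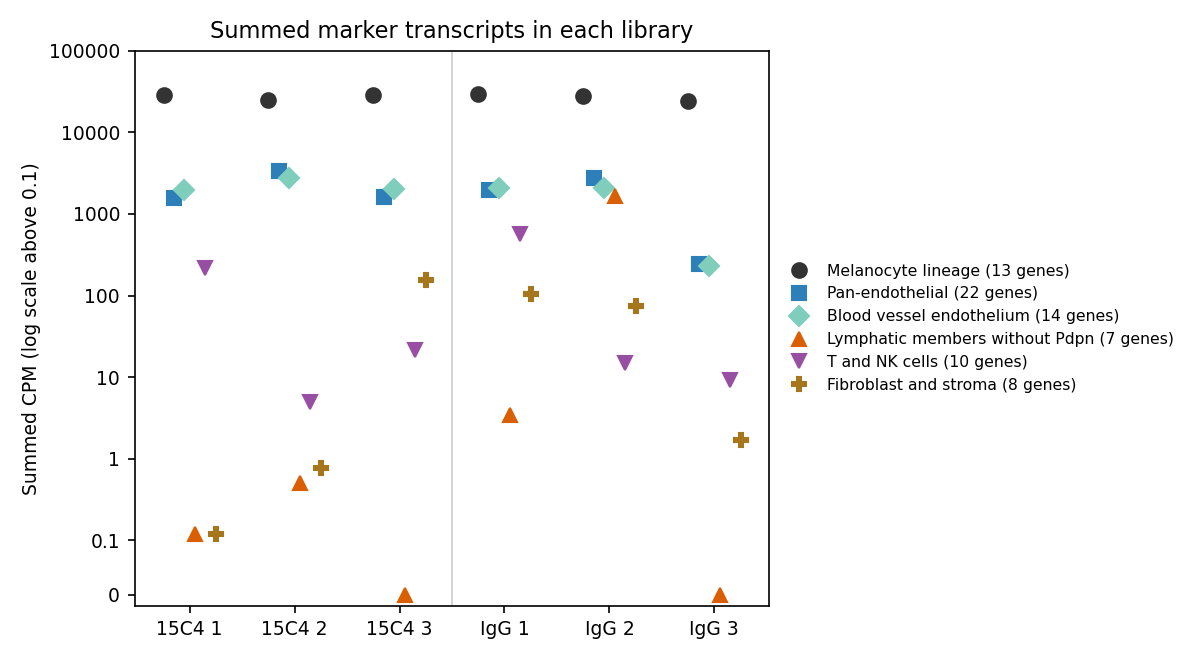
Summed CPM of 6 marker lists in each library, on an axis that is logarithmic above 0.1, with 15C4 libraries left of the IgG libraries. Each symbol is 1 list in 1 library. The 7 lymphatic members without Pdpn reach 1659 CPM in IgG 2 and at most 3.48 CPM elsewhere, while the melanocyte and blood vessel lists of IgG 2 lie within the range of the 15C4 libraries.

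Other cells make single members, and their markers were set beside them. Of 7 genes of sinusoidal endothelium, which makes Lyve1 and Stab2, 4 were detected in IgG 2, with Clec4g, Oit3 and Wnt2 at 0. They summed to 24.6, 75.7 and 3.44 CPM in 15C4 and to 54.5, 138 and 26.1 CPM in IgG, of which Stab1, itself a lymphatic gene, made up 115 CPM in IgG 2, with Fcgr2b at 20.7 CPM there. Of 11 macrophage genes, 3 were detected in IgG 2, with Cd163, Folr2, Timd4, Mrc1 and Csf1r at 0. Their sum was 19.6, 52.6 and 0 CPM in 15C4 and 7.54, 7.57 and 27.4 CPM in IgG, so IgG 2 lay below 15C4 1, 15C4 2 and IgG 3. In IgG 2 it was made up of C1qb with 55 counts, Cd68 with 17 and Adgre1 with 1. Platelet genes, 7 in all, summed to at most 1.37 CPM in any library, with Pf4 and Ppbp at 0 in IgG 2, where Mmrn1 was at 578 CPM. Neuronal genes, 6 in all, summed to 0.311 CPM in IgG 2, with Snap25, Syt1, Gad1 and Gad2 at 0, where Reln and Nts were high. They reached 45.3 CPM in 15C4 2 through Stmn2, where Reln and Nts were at 0. T and NK cell genes were highest in IgG 1, at 576 CPM, and stood at 14.8 CPM in IgG 2. The parts of sinusoidal endothelium, macrophages, platelets and neurons in the levels of these members were not tested.

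Between the treatments, Pdpn was the only member with counts in enough libraries to pass the filter of the edgeR quasi-likelihood fit, so 7 of the 8 members were not tested there. Its log2 fold change (15C4 over IgG) was 0.56 (SE 1.40), and it turned to -2.23 without 15C4 3. In that fit 0 of 11144 genes passed an adjusted p of 0.05 (0.00%), with 288 at an unadjusted p under 0.05, while DESeq2 called 65 genes and limma-voom 0. The 3 libraries of one treatment lay wholly apart from those of the other for 0 of the 8 members and for 9.52% of the tested genes, to which 7 of the members do not belong. For 8 genes, 0 is near that share and is no result about the members.

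The authors' deposited table, which gives fold changes as IgG over 15C4, calls 4 of the 8 members higher in IgG at an adjusted p under 0.05, and 2.71% of its 14112 tested genes are called in that direction. In the authors' deposited table Lyve1 has a log2 fold change of 26.66 (adjusted p = 4.15e-20), Nts 27.46 (3.03e-18), Reln 24.39 (4.03e-11) and Mmrn1 11.52 (0.0049). Prox1 is listed in the authors' deposited table at 5.12 (adjusted p = 0.239), Pdpn at -0.65 (0.924), Stab2 at 6.92 without an adjusted p, and Ccl21a without values. The 4 called members are those with 0 to 3 counts in every 15C4 library and over 700 in IgG 2. Fitted here to the 6 libraries, DESeq2 gave no p-value to Lyve1, Nts, Reln, Mmrn1 or Prox1. Of the 507 genes called in the authors' deposited table, 57 (11.2%) have at least 90% of their normalised values in 1 library, and for 30 of the 57 that library is IgG 2. The mean level the table lists per gene lay within 1% of the mean of its 6 normalised columns for 306 of 9770 symbols only, so what its fit rests on is not clear from the table.

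**Figure D3:**
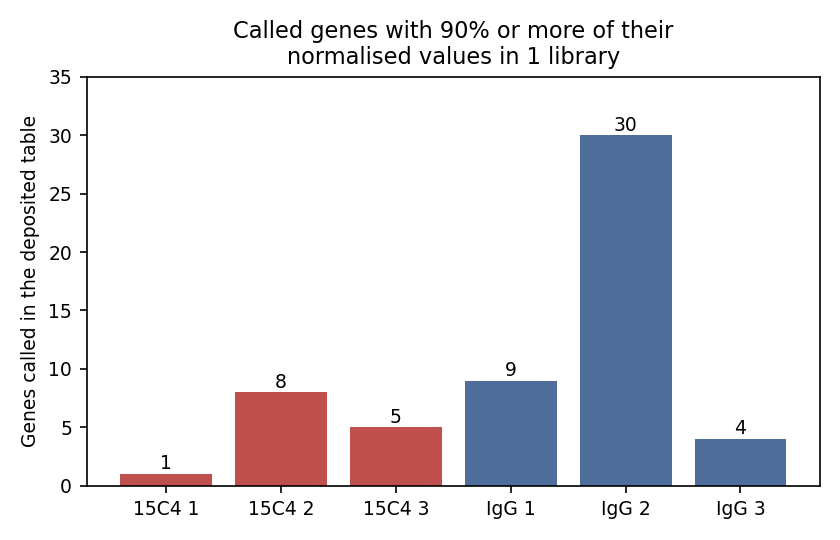
Number of genes called in the authors' deposited table (adjusted p under 0.05) that have at least 90% of their normalised values in a single library, by that library. Bars count genes, with 15C4 libraries in red and IgG libraries in blue. IgG 2 holds 30 of the 57 such genes, Lyve1, Nts, Reln and Mmrn1 among them.

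Lymphatic genes outside the 8 were followed through 5 lists, of which 50 genes are in the counts, 44 were detected and 30 tested. None passed the edgeR test in either direction, with 14 fitted above 0 and 16 below, and their median log2 fold change was -0.03, beside 0.01 for all tested genes. Without IgG 2 the median was 0.46, with 23 of 31 tested genes fitted above 0, beside 0.03 for all tested genes, and again none passed. The IgG group then rests on IgG 1 and IgG 3, and IgG 3 held few endothelial transcripts. Pan-endothelial genes, fitted with all 6 libraries, leaned above 0 too, with 18 of 22 above it and a median of 0.36. The part of endothelial content in these medians was not tested. The library with the highest CPM was IgG 2 for 14 of the 30 (46.7%), beside 18.2% of all tested genes and 5 of 22 pan-endothelial genes (22.7%). Sox18, Tie1, Tek and Kdr belong to both sets, and the lists were chosen with earlier results of these data known. These shares are therefore a description. Of the 30, the treatments lay wholly apart for 1, Foxp2, beside 9.52% of all tested genes, so this count is no excess. Foxp2 is a transcription factor of lymphatic valves and of several epithelia and neurons. It was at 2.26, 1.18 and 0 CPM in 15C4, against 54.3, 63.3 and 78.8 CPM in IgG, and its log2 fold change of -5.78 (SE 1.17) did not pass (edgeR adjusted p = 0.9997).

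Of the transcription factors that act beside Prox1, Sox18, Nr2f2, Maf, Ets2 and Nfatc1 were detected in all 6 libraries, whether or not Prox1 was. Sox18, which induces Prox1, was at 63.9, 72.1 and 9.23 CPM in 15C4 and at 64.3, 78.6 and 18.0 CPM in IgG. Nr2f2, the venous factor that pairs with PROX1, was at 193, 98.9 and 32.7 CPM in 15C4 and at 86.9, 161 and 54.6 CPM in IgG. Maf lay between 55.3 CPM in IgG 3 and 334 CPM in IgG 2. These 3 are also made by blood vessel cells. IgG 2 exceeded the next library 1.09 times for Sox18 and 1.30 times for Maf, and Nr2f2 was highest in 15C4 1. Nfatc1, a valve factor, was at 73.2 CPM in IgG 2, 3.12 times the next library, whereas Foxc1 and Ets2 were highest in 15C4 1, at 117 and 110 CPM. Tbx1, named after its values were seen, had 91 counts in IgG 2 and 0 elsewhere. Hhex, named likewise, went the other way and was low in IgG 2. It was at 52.9, 34.1 and 0.939 CPM in 15C4, against 20.9, 0.519 and 0.171 CPM in IgG. Of the 11 factors 9 were tested, 5 of them fitted above 0 and 4 below, with a median log2 fold change of 0.14 (0.69 without IgG 2).

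In the VEGF-C pathway, the receptor gene Flt4 was at 30.6, 34.5 and 8.45 CPM in 15C4, against 36.1, 96.8 and 5.23 CPM in IgG, so IgG 2 was 2.68 times the next library. Its coreceptor gene Nrp2 was at 118, 148 and 53.7 CPM in 15C4 and at 124, 283 and 63.2 CPM in IgG. Kdr, the receptor gene for VEGF-A that also binds VEGF-C, was highest in 15C4 2 at 251 CPM and stood at 126 CPM in IgG 2. The ligand gene Vegfc was highest in 15C4 1 at 26.2 CPM, against 12.9 CPM in IgG 2, and Adamts3, the protease that activates VEGF-C, had 0 counts throughout. The receptors thus leaned to IgG 2 in part, and the ligand did not. Of 5 tested genes 1 was fitted above 0 and 4 below (median -0.35, or 0.11 over 6 genes without IgG 2), and none was called.

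Of the angiopoietin and adrenomedullin genes, Calcrl, the adrenomedullin receptor, was at 22.3, 33.0 and 1.88 CPM in 15C4, against 26.7, 109 and 2.06 CPM in IgG. Its partner Ramp2 did not share this lead, with 86.8 CPM in 15C4 1 and 89.5 CPM in IgG 2. The ligands Angpt2 and Adm were highest in 15C4 3, at 643 and 234 CPM, and the receptors Tie1 and Tek stood at 43.9 and 33.2 CPM in 15C4 2, close to 45.4 and 39.1 CPM in IgG 2. Of 6 tested genes 5 were fitted above 0 and 1 below (median 0.34, or 1.03 without IgG 2). Among valve and collecting vessel genes, Gja1 was highest in 15C4 2 at 590 CPM, Efnb2 in 15C4 1 at 115 CPM, and the valve integrin Itga9 was nearly level between IgG 2 (68.0 CPM) and IgG 1 (64.9 CPM). Of 6 tested genes 3 were fitted on each side of 0 (median 0.05, or 0.40 without IgG 2), and Cldn11 had 0 counts throughout.

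Of the other surface and scavenger genes, Klhl4 was at 12.6, 36.2 and 0 CPM in 15C4, against 32.1, 170 and 5.40 CPM in IgG, and Stab1, a scavenger receptor related to Stab2, was at 11.1, 27.2 and 3.44 CPM in 15C4, against 21.3, 115 and 6.94 CPM in IgG. IgG 2 exceeded the next library 4.69 times for Klhl4 and 4.24 times for Stab1, which is far less than for the 6 members. Both were detected in the other libraries too, except Klhl4 in 15C4 3. Piezo2 was at 61.8 CPM in IgG 2 and 46.4 CPM in IgG 1. Ackr2, the decoy receptor for inflammatory chemokines, was highest in 15C4 3, at 60.9 CPM, with 12.8 CPM in IgG 2, and Sema3d had 22.0 and 19.1 CPM in IgG 2 and 3 and 0 in the other 4 libraries. Ackr4, the scavenger of CCL21, and Marco had 0 counts throughout, as did Mrc1 in IgG 2. The 4 tested genes were all fitted below 0 (median -1.64), and without IgG 2 the median was -0.04 with 2 on each side of 0. None was called in either fit.

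Genes of the receptors, adaptors and enzymes that the member proteins act with were followed as well. The podoplanin receptor gene Clec1b had 2 counts, both in IgG 1, the neurotensin receptor gene Ntsr1 had 1 count each in 15C4 2 and IgG 1, and Ntsr2 had none. Sort1, which encodes the sorting receptor sortilin that binds neurotensin, lay between 57.1 CPM in 15C4 3 and 214 CPM in 15C4 1. Of the reelin receptors, Vldlr was at 0.119, 2.55 and 48.6 CPM in 15C4 and at 2.90, 35.3 and 0 CPM in IgG, and Lrp8 lay between 1.67 CPM in 15C4 1 and 71.1 CPM in IgG 3, while their adaptor gene Dab1 had 1 count. Cd44, a widely made hyaluronan receptor, was between 1302 and 2141 CPM in every library. Tmem2 and Hyal1, linked to hyaluronan breakdown, were at 115 and 61.1 CPM in IgG 2. The synthase genes Has1 and Has2 had 1 count each. The synthase gene Has3, named after its values were seen, had 90 counts in 15C4 2, 92 in IgG 2 and at most 10 in any other library. Of 16 partner genes in the counts 14 were detected and 8 tested, with 2 fitted above 0, 6 below and none called.

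The genes most like the members were sought among 8608 others that reached 20 CPM in at least 1 library, predicted genes left out. Likeness was the total variation distance between a gene's shares of CPM over the 6 libraries and the shares of the summed 8 members, where 0 means the same shares and 1 no overlap. The 10 nearest were Ltbp1 (distance 0.0258), Pappa, Fibin, Scn3a, Akr1c14, Tmem26, Cysltr1, Fhl1, Lmcd1 and Tub (0.0440). Scn3a, a voltage-gated sodium channel subunit, was the most abundant of these, with 0 counts in all 15C4 libraries, against 8, 1759 and 5 counts in IgG 1, 2 and 3 (182 CPM in IgG 2). Ltbp1, which binds latent TGF-beta, had 354 counts in IgG 2 (36.7 CPM) and 6 in the other 5 libraries together. Cysltr1, a leukotriene receptor, had 340 counts in IgG 2 and 2 elsewhere. All 10 had between 95.1% (Lmcd1) and 99.9% (Tub) of their summed CPM in IgG 2, where they stood between 20.7 and 182 CPM. The likeness rests on 1 library of 6, in which a gene held by that library alone is alike by that fact. Outside IgG 2 the summed members are mostly Pdpn, and the 10 genes had only 1 to 13 counts there. Cd24a, with 0 counts outside IgG 2, had a distance of 0.0454, just beyond that of Tub. The order and the cut at 10 thus rest on few counts.

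**Figure D4:**
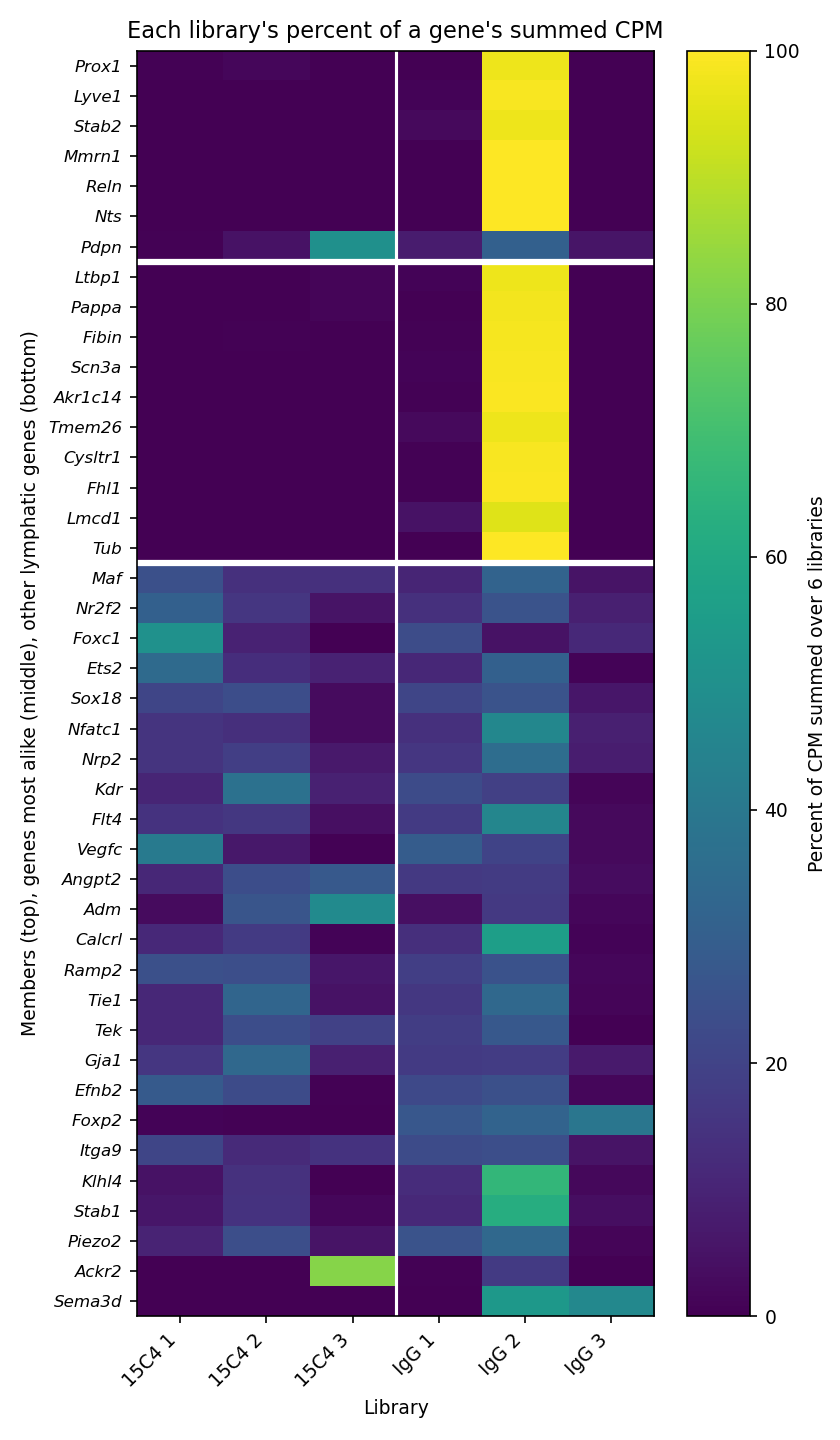
Share of each gene's CPM, summed over the 6 libraries, that each library held, in percent, with the 15C4 libraries left of the IgG libraries. The top block is the 7 detected members, the middle block the 10 genes of most similar shares and the bottom block 25 other lymphatic genes of at least 20 CPM in some library. IgG 2 holds at least 95% in the top and middle blocks except for Pdpn (30.6%), and reaches that share for no gene of the bottom block. Most of the bottom block is spread over the libraries, but Ackr2 lies mostly in 15C4 3, Foxp2 in the IgG libraries and Sema3d in IgG 2 and IgG 3.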

How the data were processed

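Endothelial cells sorted from tumours were measured by RNA sequencing in 3 libraries of 15C4 and 3 of IgG treatment, grouped by their treatment label. The authors deposited a whole-number read count per gene symbol for each library. The submitters' processing notes name STAR 2.5b, fastp, DESeq2 and featureCounts, and as builds mm9 and mm10 with no role for either. Not given in the sources used here are the annotation, the strand setting and the handling of reads that fit several genes. Without strand, reads from Prox1, Reln and Stab2 cannot be told apart from those of genes annotated antisense to them. A table deposited by the authors for the whole series repeats the counts, which were equal for all 24394 shared symbols. It holds, per the file headers, normalised values too (treated as a score, since the authors scaled and rounded them), besides the authors' log2 fold change, p-value and adjusted p-value.

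The members and all gene lists were chosen with earlier results of these data known. CPM were computed here from the counts without further scaling, with exact Poisson intervals (scipy 1.17.1). In R 4.3.3, edgeR 4.0.16 fitted the counts of all genes by its quasi-likelihood test, with TMM factors and filterByExpr (minimum count 10, total 15), with treatment as the only term and Benjamini-Hochberg adjustment at 0.05. Alternatives were other size factors, no filter, DESeq2 1.42.0, limma-voom (limma 3.58.1), a replicate block and leaving out each library. The scripts were tested on simulated data. The rule for named genes took all 8 members, from each list at most 6 genes of at least 20 CPM in some library, list genes at 0 where the pathway needed them, and the 10 nearest genes by distance. Libraries of a group differed far beyond counting noise, so none was taken as a copy of another. Because amplified reads are not separate molecules, this does not exclude technical duplicates.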

Additional observations from a re-analysis of the deposited data

How the results depend on the processing

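No gene was called under other size factors, limma-voom or the replicate block, nor with any 1 library left out (lowest and highest 0), while without a filter 1 gene was called, 3830403N18Rik, which is no member, and by DESeq2 65. The log2 fold change of Pdpn, 0.56 in the fit as reported, was -1.20 with limma-voom and -1.43 with the replicate block, and with 1 library left out it lay between -2.23 (without 15C4 3) and 1.67 (without IgG 2). It was called under none of these, and the cause of the changes of sign was not tested. The deviations of same-numbered libraries correlated at -0.0357, 0.0633 and 0.101, which shows no pairing by replicate number but does not exclude one. The summed CPM of the 8 members in IgG 2, 30.6 times the next library, was 26.0 times with TMM-scaled CPM, 17.6 times per pan-endothelial count, 19.5 times without Nts and 296 times without Pdpn, Reln and Nts. With another library left out it was 30.6 to 144 times, the last without 15C4 3, and without IgG 2 it cannot be formed. The mean summed CPM, 15C4 minus IgG, was -549, and with 1 library left out it ran from -831 to 11.7. It changed sign without IgG 2, an alternative chosen after seeing the data. Chosen likewise, leaving out IgG 2 turned the median log2 fold change of the other lymphatic genes to 0.46, against -0.03 with it, and that of the VEGF-C list to 0.11, against -0.35. Where 6 of the 8 members are nearly confined to 1 library, 3 libraries per group cannot separate treatment from the makeup of that library, and 0 counts bound levels only down to 0.153 to 0.580 CPM.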

Other observations

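Beyond the 10 genes named as most alike, 4 genes had counts in IgG 2 and 0 in the other 5 libraries: Cd24a with 402 counts, Lbp with 319, Susd2 with 295 and Fxyd6 with 227. They were chosen after their values were seen. The next gene by distance, with predicted genes left out, was Thy1, a surface glycoprotein of fibroblasts and T cells that lymphatic endothelium can also carry. It had 655 counts in IgG 2 and 46 in IgG 1. Its distance was 0.109.

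Among genes of the lymphatic lists below the level for naming, and likewise chosen after their values were seen, Celsr1, a planar polarity cadherin known from lymphatic valves, had 0 counts in all 15C4 libraries, against 2, 123 and 17 counts in IgG 1, 2 and 3. Foxc2, a forkhead factor of lymphatic valves, had 0, 11 and 0 counts in 15C4 1, 2 and 3, against 6, 35 and 0 counts in IgG 1, 2 and 3.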
